A study of Oryza sativa with 6 samples.

Results

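The 76 loci described here were strongly lower in rice root tips grown beside the floating fern Azolla filiculoides, out of 37863 loci in the count table. A locus belonged when its lowest level in the 3 control libraries was at least 2 CPM (counts scaled to the column total) and at least 4 times the highest level in the 3 co-cultivated libraries plus 0.1 CPM. The rule therefore used the control and co-cultivated values themselves. Those values are given below as a description, and no test of the difference between the groups is drawn from the members. In all, 84 loci met both thresholds, fewer than the 200 at which the list would have been cut. The rule leaves out 8 of them by name, among them the iron transporter genes IRT1, IRT2, NRAMP1, YSL15 and YSL2 and the mugineic acid synthesis gene NAAT1. The left-out loci ranked from 1 to 46 among the 84, and the one at rank 1, Os01g0647200, had a ratio of 344, so the strongest locus of all is not among the members. The same rule turned round, for loci higher in the co-cultivated libraries, gave 46 loci.

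The plants were Oryza sativa, cultivar Kitaake, moved at 13 days of age into hydroponic boxes with 4 plants and about 5 L of Yoshida solution each, without aeration. Control plants grew alone under a covered surface, and co-cultivated plants grew under a layer of living Azolla, so the cover differs between the groups as well as the fern. Poly-A RNA of the last 1 cm of the roots was sequenced at 15 days after transplanting, with 3 libraries in each group that the labels call biological replicates. The labels describe boxes of 4 plants as the replicate unit, and do not say how many root tips 1 library holds.

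Grasses take up iron by secreting mugineic acids, which bind ferric iron outside the root and are taken back as a complex. Mugineic acids are made from nicotianamine, and nicotianamine synthase builds that compound from S-adenosylmethionine. The methylthioadenosine released in this reaction is returned to methionine by the methionine salvage (Yang) cycle, which roots of iron-starved grasses use heavily. In rice, most genes of these steps are known to be induced when iron is short.

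Library totals ran from 21551508 to 25120456 estimated counts, and the 76 loci held 2.92% ± 0.762 of them (SD, n = 3) in the control group and 0.133% ± 0.0190 (n = 3) in the co-cultivated group. Their share was 3.08%, 2.09% and 3.60% in control replicates 1, 2 and 3, and 0.141%, 0.111% and 0.146% in co-cultivated replicates 1, 2 and 3. Among checked markers, the root genes LSI1, LSI2, SHR1, SCR1 and QHB summed to 767 to 1237 CPM in the control libraries and 1447 to 2524 CPM in the co-cultivated ones, so this sum did not overlap between the groups. LSI1 and LSI2 made up nearly all of it, SHR1 stood at 20.6 ± 4.67 and 17.6 ± 2.44 CPM (SD, n = 3 each), and none of the 5 root genes was called by edgeR. The 5 leaf markers summed to 9.42 to 22.1 CPM and 2.21 to 21.5 CPM. Most of this sum was CAB1R, at 19.8, 8.58 and 19.8 CPM in control replicates 1, 2 and 3. In co-cultivated replicates 1, 2 and 3 CAB1R stood at 1.58, 5.37 and 19.4 CPM. The small Rubisco subunit gene RBCS was listed at or near 0 in every library. The part of these marker sums in the differences was not tested. In bulk root tips, fewer cells that express a gene and less RNA of it per cell cannot be told apart.

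**Figure D1:**
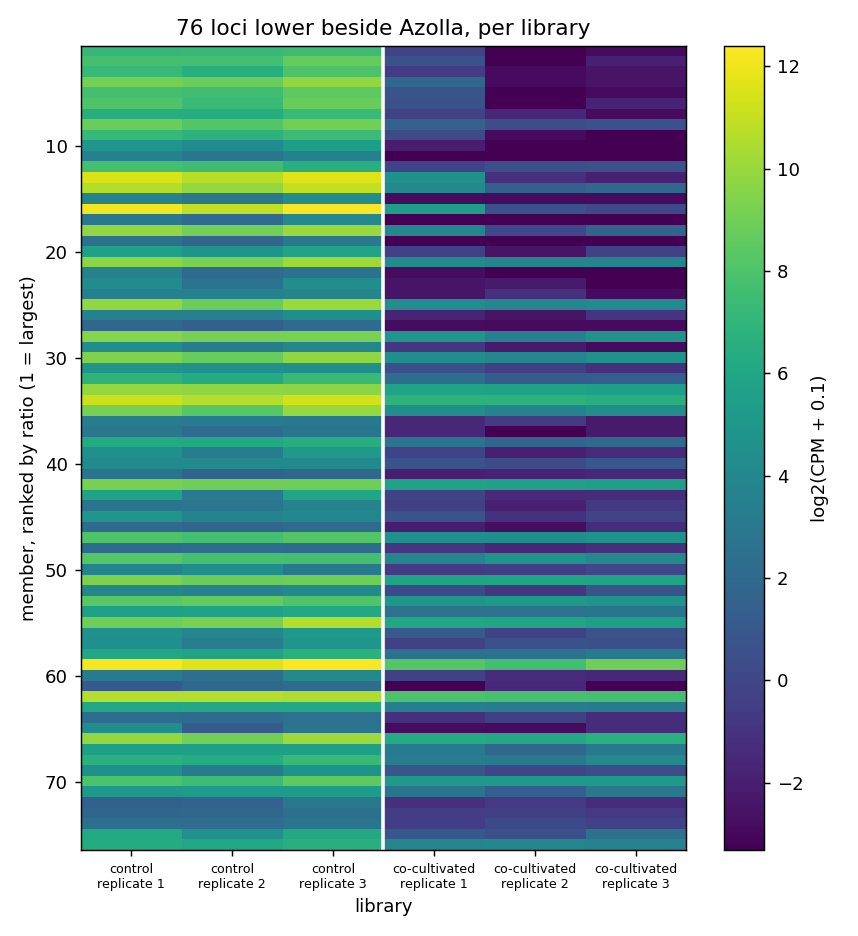
Levels of the 76 loci (rows, ranked from the largest ratio of lowest control to highest co-cultivated CPM) in the 6 libraries (columns), as log2(CPM + 0.1). Every row is brighter in the 3 control columns, as the rule requires, and in the upper rows co-cultivated replicate 1 is often brighter than replicates 2 and 3.

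The size of the difference spanned a wide range. The ratio that the rule ranks ran from 149 down to 4.17, with a median of 11.2. It was at least 100 for 7 loci, at least 50 for 15, at least 20 for 26 and at least 10 for 39, and it was under 10 for the other 37. In the 69 members with more than 3 counts over the co-cultivated libraries, the fitted log2 fold changes ran from −9.46 to −2.50. Over all 76 the median was −4.78, also with loci of few counts set to their bounds, against a median of −0.03 over all 24615 loci tested.

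By the edgeR quasi-likelihood test at an adjusted p under 0.05, 74 of the 76 members were called lower, against 1.17% of all tested loci; none was called higher, against 1.46%. Because the rule picked the members on this contrast, nothing is read from that count. The 2 members not called were NAS1 and NAS2, both of which were called lower by DESeq2, by limma-voom and by edgeR without co-cultivated replicate 1. Of the 288 loci called lower in all, 206 were neither members nor left out by name. Among these 206, 182 had control levels of at least 2 CPM but a ratio under 4, and 24 had a lowest control level under 2 CPM.

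Only 5 members could be named. The count table lists loci by RAP-DB identifiers without names, and a RefSeq gene table of another rice assembly matched 1 identifier in its own text. Symbols were therefore taken from lists of 130 symbol and locus pairs, and a pair was accepted only where the gene table placed that symbol once, on the chromosome named in the identifier and in the same order as its neighbours, which 72 pairs passed. A further 10 members appear in those lists, but their symbol was absent from the gene table for 8 and on another chromosome for 2, so they are given by locus alone. The remaining 61 members are in none of the lists.

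NAS1 and NAS2 encode nicotianamine synthases. NAS1 (Os03g0307300, chromosome 3) stood at 2849, 1677 and 3109 CPM in control replicates 1, 2 and 3 and at 26.9, 0.349 and 0.159 CPM in co-cultivated replicates 1, 2 and 3. All control values lay above all co-cultivated ones, as the rule requires of every member, and co-cultivated replicate 1 held nearly all of what remained. The means were 2545 ± 763 CPM (SD, n = 3) and 9.13 ± 15.4 CPM (n = 3). NAS2 (Os03g0307200, the next locus) stood at 4433, 2007 and 5148 CPM in the control and at 42.3, 1.48 and 1.01 CPM in the co-cultivated replicates. Its pattern over the 6 libraries had the same form, with control replicate 2 the lowest control and co-cultivated replicate 1 the highest co-cultivated library. The estimated counts of both genes were not whole, so reads may have been divided between this pair. NAS3, another nicotianamine synthase gene, was no member. It stood at 23.7 ± 13.7 CPM in the control group and 14.6 ± 1.99 CPM in the co-cultivated group (SD, n = 3 each), with a fitted log2 fold change of −0.67 and an SE of 0.42 (edgeR adjusted p = 0.419). That value was −1.04 without control replicate 2 and −0.16 without control replicate 3.

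MTK1 and IDI2 belong to the methionine salvage cycle. MTK1 (Os04g0669800, chromosome 4) encodes methylthioribose kinase and stood at 567, 498 and 492 CPM in the control and at 55.4, 51.6 and 49.8 CPM in the co-cultivated replicates. The 3 values of each group lay close together, with a coefficient of variation of 8.01% in the control and 5.47% in the co-cultivated group, and the control mean was 9.93 times the co-cultivated mean. The locus next to it, Os04g0669900, was also a member, at 78.3, 74.9 and 87.4 CPM in the control and at 6.18, 3.34 and 4.08 CPM in the co-cultivated replicates. Some estimated counts of both loci were not whole. IDI2 (Os11g0216900, chromosome 11), listed in the gene table also as M1Pi, encodes the isomerase that acts after the kinase. It stood at 268, 206 and 296 CPM in the control and at 23.1, 22.7 and 25.3 CPM in the co-cultivated replicates. These means, 257 ± 46.0 and 23.7 ± 1.39 CPM (SD, n = 3 each), differed 10.9-fold, close to the fold of MTK1. SAMS2, which encodes an S-adenosylmethionine synthetase, was tested outside the members. It was called lower, at 2369 ± 268 CPM (SD, n = 3) among controls against 1105, 1011 and 1031 CPM beside the fern, and its fitted log2 fold change was −1.14 with an SE of 0.21 (edgeR adjusted p = 0.0381). That call was lost when any 1 library other than control replicate 2 was left out (edgeR adjusted p from 0.0547 to 0.145).

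IRO3 is a bHLH transcription factor gene that is induced by iron shortage in rice and restrains the response. IRO3 (Os03g0379300, chromosome 3) stood at 70.05, 59.0 and 106 CPM in the control and at 6.01, 6.09 and 8.76 CPM in the co-cultivated replicates. The groups did not overlap, as the rule requires of every member, and in both of them replicate 3 was the highest. The gene table lists OsIRO2 as a further synonym of the same entry. The lists used here pair IRO2 with a different locus on another chromosome. That locus is also a member, but its symbol could not be checked. The entry behind the name IRO3 is therefore ambiguous, and the 2 symbols are not taken as 1 gene.

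**Figure D2:**
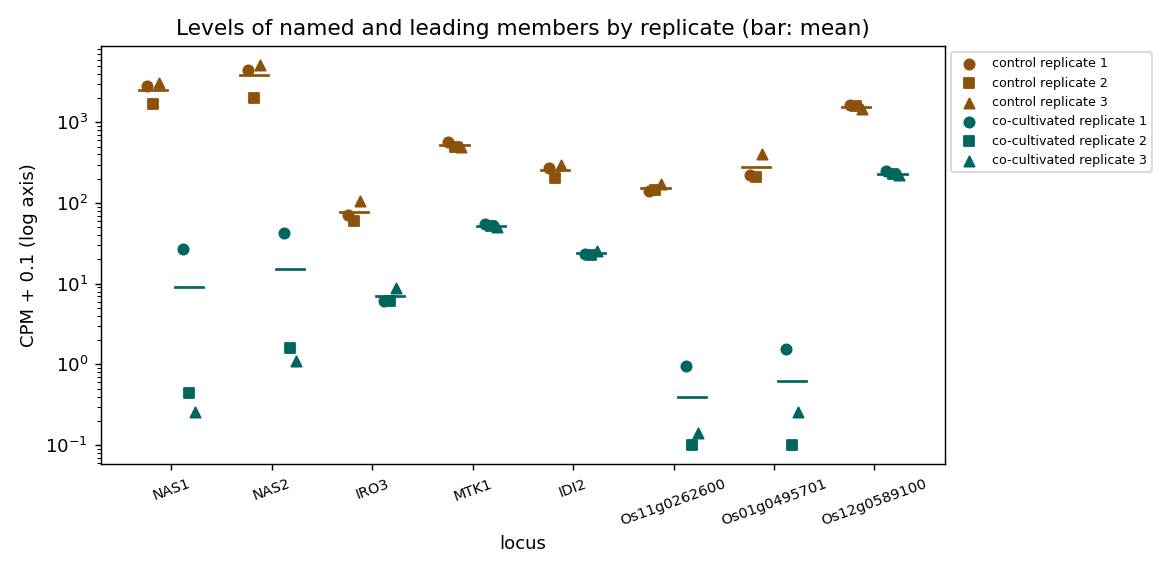
CPM + 0.1 on a log axis for the 5 named members, the 2 unnamed members with the largest ratio and Os12g0589100, with 1 point per library, marker shape for the replicate number and a bar at the group mean. NAS1, NAS2 and the 2 leading unnamed loci spread widely among the co-cultivated replicates, while MTK1, IDI2 and Os12g0589100 lie close together.

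Other genes of iron handling with a checked symbol fell inside and outside the rule. Of 19 such genes in 5 lists (uptake and transport, mugineic acid synthesis, regulators, storage and methionine salvage), 11 passed the thresholds: the 5 named members and the 6 named genes that the rule leaves out. Since these 11 had passed thresholds on the same contrast, the calls and the median of the lists are largely set by that choice. Of the 18 tested, edgeR called 10 lower and 1 higher, against 1.17% and 1.46% of all loci, with a median log2 fold change of −3.44. DESeq2 called 13 lower and limma-voom 12, against 2.91% and 1.02% of all loci, and each called 1 higher. The gene called higher was VIT2, a vacuolar iron transporter gene, at 4.01 ± 1.86 CPM in the control and 268 ± 39.3 CPM in the co-cultivated group (SD, n = 3 each; edgeR adjusted p = 0.00149). Its relative VIT1 had a log2 fold change of −0.32 with an SE of 0.60 (edgeR adjusted p = 0.802), and its sign turned without control replicate 2, with a replicate block and by limma-voom. Among those outside the rule, the manganese and iron transporter gene NRAMP5 had a log2 fold change of −0.14 with an SE of 0.33 (edgeR adjusted p = 0.845), whose sign turned when control replicate 3 or co-cultivated replicate 3 was left out. YSL16, a transporter of metal complexes with nicotianamine, stood at −0.79 with an SE of 0.33 (edgeR adjusted p = 0.241). IDEF1, a regulator upstream of the iron response, stood at −0.83 with an SE of 0.17 (edgeR adjusted p = 0.0525), and it was called lower by DESeq2 (adjusted p = 0.00250) and with upper-quartile scaling (edgeR adjusted p = 0.0491).

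The 9 other lists, which cover zinc, copper and cadmium transport, low oxygen, gibberellin, nitrogen, phosphate and sulfate, diterpenoid phytoalexins, strigolactone, and root and leaf markers, held 53 checked genes. None of these 53 was a member. The low-oxygen list also holds Os03g0226200, whose symbol could not be checked and which passed the thresholds at a ratio of 10.6 but is left out by name. Of the 49 tested, edgeR called 0 lower and 4 higher (ZIP5, ZIP10, PT6 and SPX2), against 1.17% lower and 1.46% higher over all loci. At an unadjusted p under 0.05, edgeR had 4 lower, a count for which no share over all loci is given and from which nothing is read. DESeq2 called 0 lower and 14 higher, and limma-voom 0 lower and 3 higher. Over all loci, DESeq2 called 943 lower (2.91%) and 1488 higher, and limma-voom 250 lower (1.02%) and 309 higher. The median log2 fold change of the 49 genes was 0.72.

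The 2 unnamed members with the largest ratio were Os11g0262600 and Os01g0495701. Os11g0262600 stood at 142, 146 and 175 CPM in the control replicates and held 20, 0 and 1 counts in the co-cultivated ones. Os01g0495701 stood at 221, 212 and 407 CPM in the control replicates and at 1.44, 0 and 0.161 CPM in the co-cultivated ones. Both were nearly absent from co-cultivated replicates 2 and 3 and kept a small amount in replicate 1, as NAS1 and NAS2 did. Some estimated counts of both loci were not whole, so reads may be shared with similar loci. Their patterns are therefore not known to be separate from those of other members. Other unnamed loci below were singled out after their values had been seen.

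In 3 members no count was found in any co-cultivated library. Os12g0236225, Os12g0236200 and Os01g0608000 held 709, 666 and 374 counts over the control libraries. With 3 counts per group taken as the floor, they were at least 256-fold, 241-fold and 135-fold lower. A further 4 members held 1 to 3 counts over the co-cultivated libraries. Os06g0294950 held 3 against 2096 in the control, a ratio of 758 with an exact 95% interval of 259 to 3676. Os12g0508500 held 1 against 502, a ratio of 544 with an interval of 97.2 to 21541. Os03g0725200 and Os03g0828600 each held 1 count in every co-cultivated library, against 952 and 250.0 in the control, with ratios of 344 (117 to 1671) and 90.4 (30.6 to 441). These bounds and intervals cover counting error alone.

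What remained in the co-cultivated roots was uneven between replicates. The rule used the highest co-cultivated value but not which replicate it came from. Of the 73 members with any count there, replicate 1 was the highest for 42, replicate 2 for 14 and replicate 3 for 17. Among 18198 other tested loci with control levels of at least 2 CPM, co-cultivated replicate 1 was the highest for 23.3%. With TMM scaling the numbers were 43 of 73 members and 31.1% of the other loci. Among the 39 members with a ratio of at least 10, replicate 1 was the highest or all 3 were at 0 in 32, and among the 37 with a smaller ratio it was the highest in 13.

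A marked excess in replicate 1 was concentrated at the top of the list. In 15 members replicate 1 had more than 3 counts and at least 3 times the mean of replicates 2 and 3, against 2 members with such an excess in replicate 2 and 4 in replicate 3. Of the 15, 8 were among the first 10 by ratio and all had a rank of 39 or higher up the list. Among the 24539 other tested loci, the same excess was found in 0.269% for replicate 1, 0.518% for replicate 2 and 1.14% for replicate 3. Those loci were not matched to the members for co-cultivated level. The median member level there was 1.46, 0.677 and 0.904 CPM in replicates 1, 2 and 3. At few counts such an excess arises more easily, so these shares are not like for like. The 8 loci left out by name shared the pattern: replicate 1 was the highest for 7 of them, and 3 had the excess there. NAS1 was 106 times and NAS2 34.0 times as high in replicate 1 as in the mean of the other 2. Os02g0594166 was 75.5 times, Os01g0608101 58.8 times and Os10g0195250 57.8 times as high, each on 83 counts or fewer in replicate 1. In replicates 2 and 3 these loci held 0 and 1, 1 and 2, and 1 and 0 counts, so the folds are imprecise. Some estimated counts of each were not whole. In contrast, MTK1 was 1.09 times and IDI2 0.965 times as high. Os02g0586900, at rank 12 by ratio, went the other way, with 0.809 CPM in replicate 1 against 1.35 and 1.37 CPM in replicates 2 and 3. What set replicate 1 apart was not tested.

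**Figure D3:**
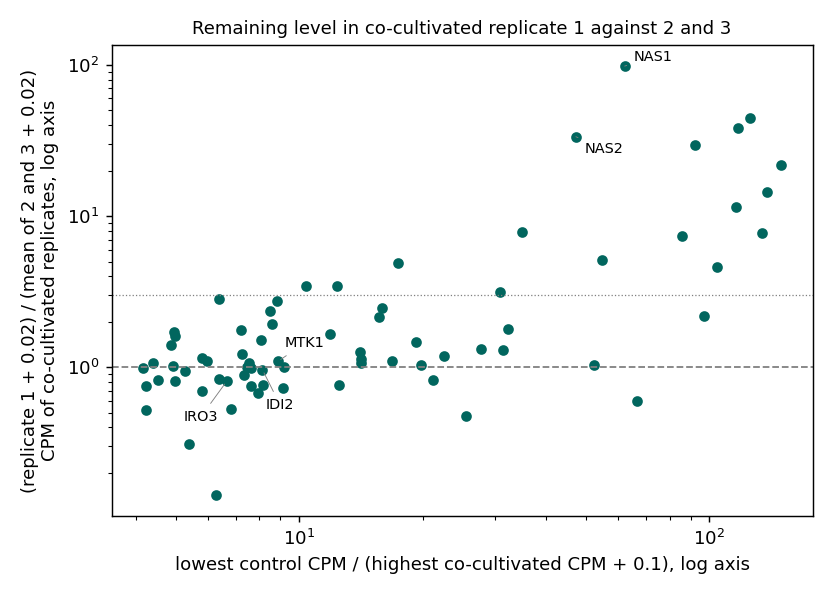
For the 73 members with any count in the co-cultivated libraries, the level in co-cultivated replicate 1 divided by the mean of replicates 2 and 3 (0.02 CPM added to each, log axis) against the ratio that ranks the members (log axis). The dashed line marks equal levels and the dotted line a 3-fold excess; no minimum count is applied, points above the dotted line lie at ratios of 10 and more, and MTK1, IDI2 and IRO3 lie near the dashed line.

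The control replicates also differed in one direction for most members. Control replicate 3 was the highest for 54 of 76 members and control replicate 2 the lowest for 56. Among the 18198 other loci, replicate 3 was the highest for 33.7% and replicate 2 the lowest for 37.3%. The full order, replicate 3 above 1 above 2, was found in 46 members (60.5%), in 24.2% of the other loci and in 6 of the 8 loci left out by name. The median of the level in control replicate 3 divided by that in replicate 2 was 1.74 over the members and 0.970 over the other loci. With TMM scaling, replicate 3 was the highest for 55 members and replicate 2 the lowest for 56.

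The spread between control replicates was larger at the median for the members than for the other loci, which were not matched to them for level. The coefficient of variation of the members had a median of 32.3%, from 2.32% to 98.4%, against a median of 18.5% over the 18198 others. It was at least 30% in 43 members (56.6%) and in 25.1% of the others. The widest was Os07g0178800, at 20.9, 2.27 and 6.54 CPM in control replicates 1, 2 and 3 and at 0.0426, 0.0398 and 0.321 CPM in the co-cultivated ones. In that locus control replicate 2 passed the level threshold narrowly. The most even was Os07g0102100, at 17.8, 18.7 and 18.5 CPM in the control and 1.49, 1.11 and 1.85 CPM in the co-cultivated replicates.

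In 3 members the coefficient of variation was under 10% in both groups. They were MTK1, Os12g0589100 and Os12g0126200. Os12g0589100 stood at 1620, 1594 and 1475 CPM in the control and at 247, 230 and 220 CPM in the co-cultivated replicates, a ratio of the means of 6.73. Os12g0126200 stood at 65.1, 71.3 and 70.2 CPM and at 11.1, 10.04 and 9.31 CPM, a ratio of 6.78.

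**Figure D4:**
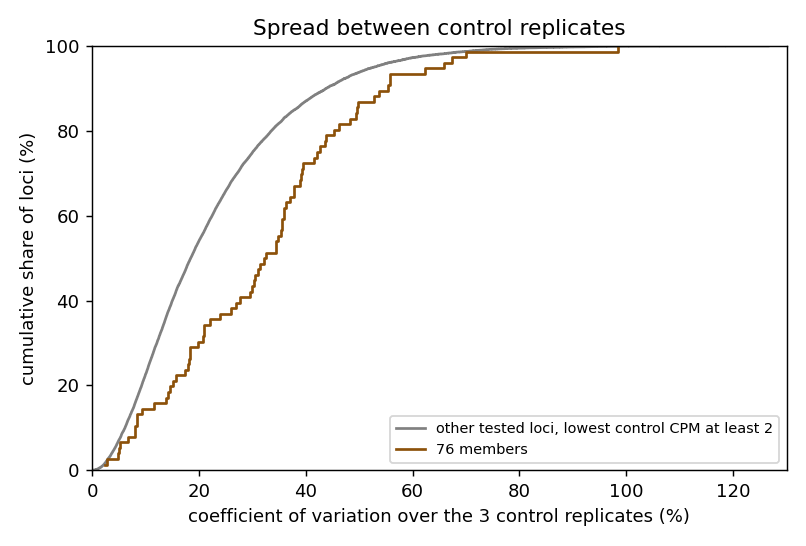
Cumulative share of loci (%) by the coefficient of variation over the 3 control replicates (%), for the 76 members and for 18198 other tested loci with a lowest control level of at least 2 CPM. The curve of the members lies to the right over most of the range, with medians of 32.3% and 18.5%.

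Control replicate 2, low for most members, decided which loci entered at the edge. Without it, 116 loci met the rule, that is all 76 and 40 more, of which 14 were under 2 CPM in that replicate. Since the rule uses the lowest control and the highest co-cultivated value, leaving out a library can add loci but cannot remove one. That all 76 remained was therefore fixed in advance. Leaving out any other library added 1 to 10 loci. Just inside the ratio threshold lay Os04g0381700 at a ratio of 4.17, with 66.5 to 94.5 CPM in the control and 12.3 to 15.8 CPM in the co-cultivated replicates, and Os01g0246400 at 4.23. Just outside lay Os05g0541400 at 3.90, with 13.6, 4.78 and 20.1 CPM in control replicates 1, 2 and 3 and 0.239 to 1.12 CPM in the co-cultivated ones. The next locus outside, Os06g0112200 at 3.84, was even, with 231 to 258 CPM against 51.1 to 60.1 CPM.

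A few loci held most of the members' counts. In the control libraries together, Os07g0432201 held 15.4% of them, NAS2 13.3% and NAS1 8.72%, and 5 loci held 50.1%. Os07g0432201 stood at 4791, 3305 and 5390 CPM in the control and still at 299, 197 and 518 CPM in the co-cultivated replicates. It thus kept far more counts beside the fern than NAS1 or NAS2, with a ratio of the means of 13.3. These shares count fragments and are not levels per length.

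The members lay on all 12 chromosomes. Chromosome 1 held 17 (22.4%, against 14.3% of the tested loci) and chromosome 3 held 11 (14.5% against 13.1%). Chromosomes 6 and 12 held 8 each (10.5%, against 8.14% and 5.51%). Chromosomes 5 and 8 held 1 each (1.32%, against 8.31% and 6.50%). Identifiers that do not end in 00 made up 16 members (21.1%) and 9.77% of the tested loci. Estimated counts that were not whole in at least 1 library were found in 24 members (31.6%) and 8.81% of the tested loci, and for these loci reads may be shared with a similar one.

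Of the 76 members, 19 lay within 3 rows of another member in locus order, in 8 runs. Os12g0236100, Os12g0236200 and Os12g0236225 formed a run of 3. Os12g0236100 stood at 809, 596 and 1144 CPM in the control and at 18.9, 15.05 and 14.0 CPM in the co-cultivated replicates, whereas the other 2 were at 0 there. Os01g0608000, Os01g0608101 and Os01g0608300 formed another. Between the last 2 lies Os01g0608200, which held 82, 17 and 47 counts in control replicates 1, 2 and 3 and none in any co-cultivated library. Os07g0431160, Os07g0432201 and Os07g0432333 formed one more, in which all 3 had counts that were not whole. The pair Os01g0871500 and Os01g0871600 had whole counts, at 465 to 1052 CPM against 15.5 to 20.4 CPM and at 295 to 525 CPM against 1.19 to 2.94 CPM. The remaining pairs were NAS2 with NAS1, MTK1 with Os04g0669900, Os03g0237100 with Os03g0237201, and Os03g0751100 with Os03g0751200. The 8 loci left out by name held 2 more pairs, IRT2 with IRT1 and YSL2 with YSL15. The libraries were stranded, but the strand setting of the counting is not given in the sources used here, so overlapping and antisense neighbours cannot be told apart.

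**Figure D5:**
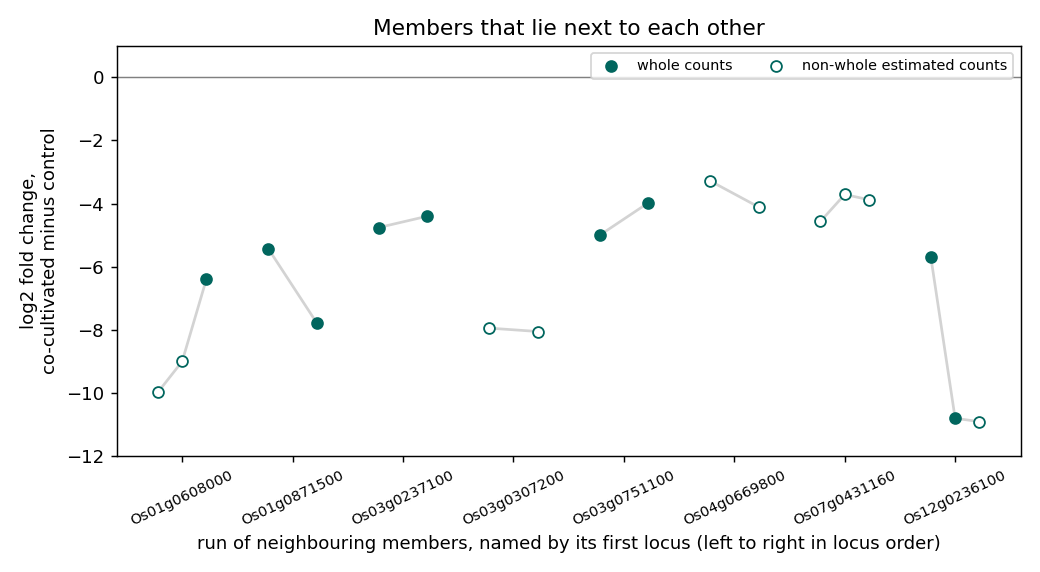
Fitted log2 fold change (co-cultivated minus control) of the 19 members in 8 runs of neighbouring loci, in locus order within each run and named by the first locus; open points had estimated counts that were not whole. All points lie below −3; the values of Os01g0608000, Os12g0236200 and Os12g0236225, which had no co-cultivated counts, depend on the model's prior count and are not bounds.

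Loci next to a member that did not meet the rule themselves were mostly not called lower. There were 132 of them and 84 were tested, with a median log2 fold change of −0.18. By edgeR, 9 of the 84 (10.7%) were called lower and 0 higher, against 1.17% called lower over all tested loci. The 9 include Os01g0608200, Os02g0594232 next to Os02g0594166, and Os07g0430501, which met the ratio but missed the level threshold at 1.97 CPM. Os03g0439800, next to Os03g0439700 at rank 3, was called lower with a log2 difference of −2.33 (edgeR adjusted p = 0.00796). It held 5084, 4049 and 8429 counts in control replicates 1, 2 and 3, against 1169, 1270 and 1249 beside the fern. The smallest of the 9 was Os10g0567300 at −0.90 (edgeR adjusted p = 0.0218). The count depended on the libraries: it was 1 of 88 without co-cultivated replicate 1, 2 of 88 without co-cultivated replicate 3, 4 of 88 without co-cultivated replicate 2, 2 of 84 without control replicate 1, 5 of 84 without control replicate 3 and 11 of 88 without control replicate 2. In each of these fits the share was above that over all loci, which ran from 0.331% to 1.95%. Whether such neighbours have transcripts of their own or receive reads of the member was not tested.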

How the data were processed

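Stranded poly-A libraries of rice root tips, 3 per group, were analysed from 1 table. The build IRGSP-1.0 and the tool DESeq2 1.28.1 are named per the submitters' processing notes. How reads were aligned and counted, and with which strand setting, is not given in the sources used here. The deposited values are estimated counts per locus, unscaled. They were rounded for the tests, although the test plan had taken them to be whole counts; 1343 to 1409 loci per library were more than 1e-06 from a whole number. Every column was mapped to a sample through its label.

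The membership rule and all printed levels used CPM from column totals of the unrounded estimated counts. The 24615 loci that passed filterByExpr entered 1 edgeR model (version 4.0.16, under R 4.3.3) with TMM scaling and a term for group. The quasi-likelihood test was two-sided and its p-values were adjusted by Benjamini-Hochberg over all of them. The members and gene lists were chosen with earlier results of these data known. Named genes are all members with a checked symbol, the 2 unnamed members with the largest ratio, checked iron genes outside the rule and loci at the threshold. Replicates of a group differed by 21.7 to 113 chi-square units per locus, where sampling noise gives about 1, so none was merged. P-values set the difference between the groups against the spread between these replicates. In counts simulated from these libraries for all 24615 loci, the test recovered 6, 41, 47 and 50 of 50 loci lowered 2-, 4-, 8- and 16-fold, and 9 of its 153 calls were false. The lowered loci were drawn only from those with a mean above 2 CPM. Libraries were drawn independently with no outlying replicate, so recovery of loci such as NAS1 and NAS2 is not covered. Alternatives were DESeq2 1.42.0, limma-voom (limma 3.58.1), other scalings and filters, a replicate block, other rule thresholds and each library left out.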

Additional observations from a re-analysis of the deposited data

How the results depend on the processing

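The member count was 76 with TMM or DESeq2 scaling, 77 without the 20 most abundant loci, and 62 to 93 with a lowest control level of 1 or 5 CPM, a ratio of 3 or 0.5 CPM added. A ratio of at least 8 left 48. Leaving out 1 library, which under this rule can only add loci, gave 77 to 116, the largest without control replicate 2. Members called lower numbered 73 by limma-voom, 76 by DESeq2 and 56 to 74 with 1 library left out. Omitting control replicate 1 cost 18 of the 74 calls and omitting co-cultivated replicate 1 cost 11. The share of all loci called lower was 1.02% by limma-voom, 2.91% by DESeq2 and 0.331% to 1.95% with 1 library left out. Because the rule picked the members on this contrast, nothing is read from such counts of members. Over all loci, DESeq2 called 943 lower and 1488 higher against 288 and 360 by edgeR, and leaving out 1 library gave 83 to 493 lower and 56 to 361 higher, the most in both directions without control replicate 2. The cause was not tested for DESeq2 or for the left-out libraries.

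The main model took the replicate numbers as names only. Deviations of same-numbered libraries correlated at 0.0571, 0.146 and 0.174, and those of differently numbered libraries at −0.203 to 0.0762. Control replicate 1 correlated best with co-cultivated replicate 2 (0.0583), and co-cultivated replicate 1 with control replicate 3 (0.0762). The other libraries correlated best with their own number. Whether the numbers mark a shared block cannot be told from these values. With a replicate block, 296 loci were called lower, 403 higher and 75 of the 76 members lower, NAS2 now among them. Loci next to members, with alternatives chosen after the data were seen, gave 7 to 11 calls under other edgeR settings and the block, 9 by limma-voom and 17 of 119 by DESeq2. Over all loci, the share called lower was 1.03% to 1.29% in those edgeR fits, 1.02% by limma-voom and 2.91% by DESeq2. Residual levels in co-cultivated libraries rest on few counts, with 11 to 21 members at 3 counts or fewer per library. Outside the members, the log2 fold change of VIT1 was 0.10 by limma-voom, 0.044 with the replicate block and −0.76 to 0.68 with 1 library left out, and that of NRAMP5 ran from −0.42 to 0.15 with 1 library left out.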
